A study of Mus musculus with 12 samples.

Results

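Intermediate filaments are the rope-like part of the cytoskeleton, beside actin and microtubules. Vimentin, desmin and nestin form the filaments of mesenchymal, muscle and progenitor cells, keratins form those of epithelial cells, and lamins line the inside of the nuclear envelope. A keratin filament needs a type I partner, such as keratin 18 or keratin 19, and a type II partner, such as keratin 8 or keratin 7. In the adult testis vimentin is the filament of Sertoli cells, while keratin 8 and keratin 18 are known from immature Sertoli cells and vimentin, desmin and nestin from cells around the tubules and vessels. The mRNA levels of 10 such genes were examined here: Vim, Nes and Des, the keratins Krt7, Krt8, Krt18, Krt19 and Krt80, and the lamins Lmna and Lmnb1. They were chosen by gene symbol out of 17995 genes in the expression table, and all 10 had values in every library.

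The 12 RNA-seq libraries came from C18-4, a mouse spermatogonial stem cell line, and TM4, a mouse Sertoli cell line, for which the labels give the strain IRC. In each line 3 libraries came from cells treated with a control shRNA (shNC, labelled C3NC in C18-4 and TM3NC in TM4) and 3 from cells treated with shRNA against M5, the muscarinic acetylcholine receptor encoded by Chrm5 (shM5, labelled CM5 in C18-4 and TMM5 in TM4). According to the methods, the shRNAs were made as lentiviral constructs with 3 target positions for a receptor gene, so shM5 is not 1 sequence, and each line is a single line that stands for its cell type. Neither the labels nor the methods say that replicates were separate cultures, so the p-values measure the spread between these libraries, which may be technical. Chrm5 was at or below 0.01 RPKM in all 12 libraries and could not serve as a check of the knockdown. In bulk RNA fewer cells that express a gene and less RNA per cell cannot be told apart.

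The markers of both cell types were incomplete. Of 12 germ cell markers 10 were in the table, and 1 of them, Id4, reached 1 RPKM in a C18-4 library. The germ cell genes Ddx4, Dazl and Zbtb16 were at or below 0.05, 0.04 and 0.02 RPKM there, and Kit and Stra8 were at 0. In TM4 the Sertoli genes Amh and Cldn11 were at or below 0.19 and 0.03 RPKM and Sox9 was between 1.11 and 1.74 RPKM, while Wt1, another Sertoli gene, was at or below 0.15 RPKM in TM4 and between 53.93 and 72.32 RPKM in C18-4. Of 8 epithelium markers 1, Epcam, reached 1 RPKM in C18-4 (1.15 to 2.32 RPKM), none did in TM4, and Cdh1 was at or below 0.07 RPKM in all libraries. The sum of 8 myoid and fibroblast markers was 477 to 686 RPKM in C18-4 and 1382 to 1966 RPKM in TM4. Of these 8, 6 reached 1 RPKM in C18-4 and 7 in TM4. Col1a1 (287.22 to 385.69 RPKM) and Dcn (91.38 to 183.87 RPKM) led the C18-4 sum. Col1a2 was at or below 0.19 RPKM in C18-4 and between 296.56 and 565.57 RPKM in TM4. Myh11 was at or below 0.07 RPKM in all libraries. The lines are therefore named below by their labels only.

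Some libraries stood apart. The value that 1 read was worth was read from the steps between the low values of 233 genes. It was between 0.993 and 1.010 in relative terms in every library. Only genes whose values lay near whole multiples of 1 shared step were kept, which favours values near 1. The steps therefore do not show that the libraries had equal depth, and the depth itself is unknown. TM4 shNC replicate 3 differed from TM4 shNC replicates 1 and 2 by a root mean square of 0.640 and 0.642 (log2) over all tested genes, and from the 3 TM4 shM5 libraries by 0.202 to 0.257. In C18-4, replicate 3 of both groups stood apart from replicates 1 and 2. The summed RPKM of 6 targets of the stress factor ATF4 (Atf3, Ddit3, Trib3, Chac1, Asns and Sesn2) moved with both splits. It was 391 to 402 RPKM in C18-4 replicates 1 and 2, 755 and 737 RPKM in C18-4 shNC and shM5 replicate 3, 997 and 998 RPKM in TM4 shNC replicates 1 and 2, and 236 to 274 RPKM in TM4 shNC replicate 3 and the TM4 shM5 libraries. Results that rest on these libraries are given with and without them.

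The promoters of the keratins that set the lines apart were read from RefSeq (GRCm38.p6), together with that of Vim, which was high in both lines. Of the 10 genes 7 had an entry, and Krt19, Krt80 and Lmnb1 had none. Each printed stretch is the 250 bases before the annotated start on the coding strand. Capitals mark an E-box of the letters CACCTG (or CAGGTG on the other strand), the motif that repressors of epithelial genes are known to read, or a TATA box of the letters TATAAA (or TTTATA). The search covered 300 bases, from 250 before to 50 after the start. Krt7, Krt8, Krt18 and Vim were printed for their contrast in expression.
Krt7 promoter (chr15:101412153-101412402, + strand): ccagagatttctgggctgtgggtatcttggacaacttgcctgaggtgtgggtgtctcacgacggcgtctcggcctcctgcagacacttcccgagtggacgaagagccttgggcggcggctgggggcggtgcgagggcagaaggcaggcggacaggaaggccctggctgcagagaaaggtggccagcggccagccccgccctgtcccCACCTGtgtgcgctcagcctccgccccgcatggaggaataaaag
Krt8 promoter (chr15:102004343-102004592, - strand): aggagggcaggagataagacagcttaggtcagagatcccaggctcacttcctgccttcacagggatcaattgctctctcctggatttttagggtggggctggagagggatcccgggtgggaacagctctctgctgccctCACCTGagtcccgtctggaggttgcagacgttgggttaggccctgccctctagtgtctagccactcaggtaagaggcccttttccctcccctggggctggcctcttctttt
Krt18 promoter (chr15:102027966-102028215, + strand): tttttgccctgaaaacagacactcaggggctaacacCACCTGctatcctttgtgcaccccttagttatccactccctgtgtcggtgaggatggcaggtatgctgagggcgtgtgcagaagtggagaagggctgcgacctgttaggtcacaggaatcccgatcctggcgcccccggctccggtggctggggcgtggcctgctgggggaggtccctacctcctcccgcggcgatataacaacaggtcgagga
Vim promoter (chr2:13574061-13574310, + strand): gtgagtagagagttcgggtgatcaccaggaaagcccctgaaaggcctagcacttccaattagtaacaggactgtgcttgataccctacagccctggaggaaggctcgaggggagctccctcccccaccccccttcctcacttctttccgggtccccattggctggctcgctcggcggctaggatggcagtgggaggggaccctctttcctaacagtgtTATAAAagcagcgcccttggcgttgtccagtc
Krt7, Krt8 and Krt18 each held 1 E-box, at -44, -111 and -214 from the start, and Vim, Nes, Des and Lmna held none. Of all 32851 promoter windows 20.2% held this motif. Vim held a TATA box at -32, a motif found in 13.6% of the windows. In Krt8 both spellings of the TATA box overlapped at the start itself and run past the printed stretch. These matches are letters in a window and say nothing about which factors were bound.

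Vim led the order of levels in both lines. RPKM is scaled for transcript length, so the levels of different genes can be set side by side. Over the 6 C18-4 libraries the mean was 684 RPKM for Vim (SD 71.3), 281 RPKM for Krt19 (SD 84.2), 105 RPKM for Lmna (SD 25.5), 99.5 RPKM for Lmnb1 (SD 22.9) and 83.1 RPKM for Krt18 (SD 11.97). Nes followed with 27.6 RPKM (SD 4.83), Krt80 with 18.1 RPKM (SD 3.24), Des with 5.13 RPKM (SD 0.851), Krt7 with 2.78 RPKM (SD 0.666) and Krt8 with 2.497 RPKM (SD 0.436). The ranges of Lmna and Lmnb1, of Lmnb1 and Krt18, and of Krt7 and Krt8 overlapped, and those of the other neighbours in this order did not.

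In TM4 the order differed below Vim. The mean over 6 libraries was 917 RPKM for Vim (SD 231), 165 RPKM for Lmna (SD 52.4), 49.4 RPKM for Nes (SD 11.9), 27.2 RPKM for Lmnb1 (SD 9.79), 22.6 RPKM for Krt80 (SD 2.85) and 0.442 RPKM for Des (SD 0.0708). Krt7, Krt19, Krt8 and Krt18 came last, none above 0.20 RPKM in any TM4 library. The ranges of Nes and Lmnb1, of Lmnb1 and Krt80, and of these last 4 keratins overlapped.

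**Figure D1:**
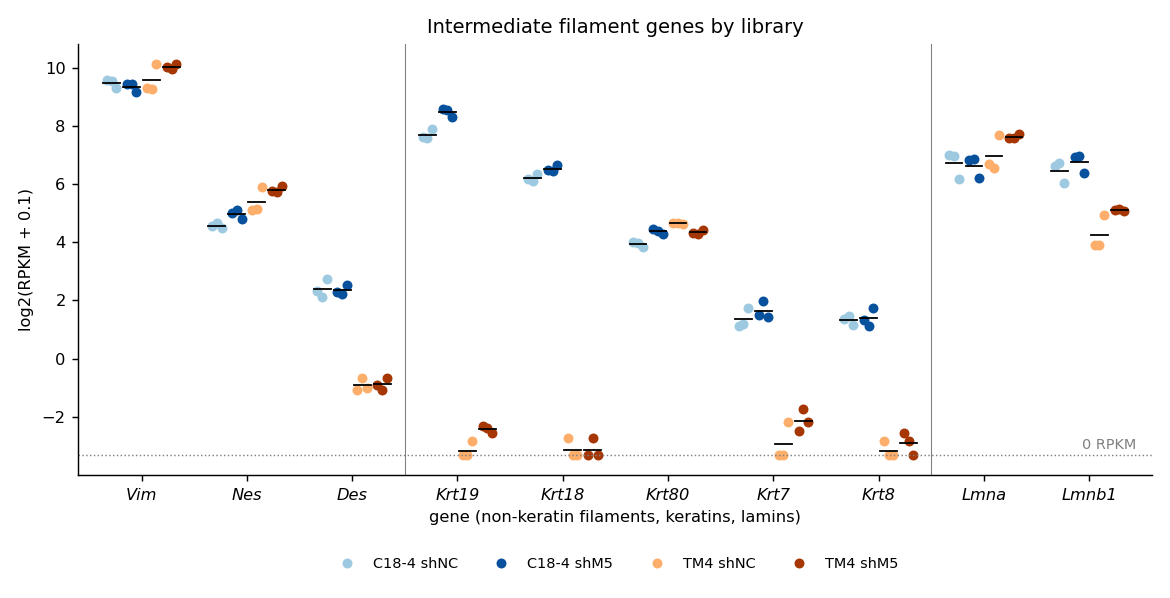
Levels of the 10 intermediate filament genes. The vertical axis is log2(RPKM + 0.1), each point is 1 library, colours mark the 4 groups, black lines are group means of 3 libraries, and the dotted line marks 0 RPKM. Krt19, Krt18, Krt7 and Krt8 lie above 2 RPKM in every C18-4 library and at or below 0.20 RPKM in every TM4 library, while Krt80 lies between 14.14 and 25.48 RPKM in all 12.

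The comparison of TM4 with C18-4, over the mean of shNC and shM5 libraries in each line, asks which filament genes set the 2 lines apart. limma called 73% of 11773 genes at an adjusted p under 0.05 in it, and 6 and 6 libraries did not overlap for 52.8% of them. All 10 filament genes passed, which is to be read against that share. Krt7, Krt8, Krt18, Krt19 and Des passed the filter on low values through C18-4 alone, so their differences followed from the filter. The lines did not overlap for these 5 genes and Lmnb1.

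The simple epithelial keratins were C18-4 genes in this pair of lines. Krt19, a type I keratin of simple and ductal epithelia, was between 190.49 and 379.17 RPKM in C18-4 with a median of 274 RPKM, and between 0 and 0.10 RPKM in TM4. Krt18, the type I partner of keratin 8, was between 68.27 and 100.82 RPKM in C18-4 with a median of 84.7 RPKM, and listed at 0 in 4 of 6 TM4 libraries and at 0.05 RPKM in the others. Every C18-4 library was far above every TM4 library for both genes. On the log2(RPKM + 0.1) scale the difference of TM4 from C18-4 was -10.87 (SE 0.11) for Krt19 and -9.49 (SE 0.14) for Krt18. With values this near 0 in TM4 these sizes depend on the added constant, and with 1 RPKM in its place they were -8.01 and -6.36.

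The type II keratins that pair with them were scarce in both lines. Krt8 was between 2.06 and 3.26 RPKM in C18-4 and between 0 and 0.07 RPKM in TM4. Krt7, a type II keratin of simple epithelia, was between 2.08 and 3.83 RPKM in C18-4 and between 0 and 0.20 RPKM in TM4. Neither gene overlapped between the lines. The differences on the log2(RPKM + 0.1) scale were -4.39 (SE 0.17) for Krt8 and -4.03 (SE 0.23) for Krt7. These sizes also depend on the added constant, since both genes were near 0 in TM4.

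Type I keratin mRNA outweighed type II keratin mRNA in C18-4. The 16 type I keratins of the table summed to 260 to 319 RPKM in C18-4 shNC and 415 to 469 RPKM in C18-4 shM5, against 19.8 to 20.8 RPKM and 25.7 to 27.3 RPKM for the 18 type II keratins. The ratio of type I to type II was 12.5 to 17.2 over the 6 C18-4 libraries and 0.0338 to 0.0640 over the 6 TM4 libraries, in which Krt80 made up nearly all type II keratin mRNA. The count of Krt8 has a limit of its own: 26.9% of the 50-base words of its transcript are shared with 1 other gene, Krt8-ps, which the table does not list, so the mapping could split its reads. For Krt18 this share was 0.720%, and for the other 8 genes it was 0.

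The other keratins were near 0. Of 29 further keratin genes, 26 stayed under 0.3 RPKM in every library, 5 were at 0 throughout, and 1, Krt10, reached 1 RPKM, with 1.09 to 1.63 RPKM in C18-4 and 0.81 to 1.09 RPKM in TM4. Krt7, Krt8, Krt18, Krt19 and Krt80 made up 99.1% to 99.7% of all keratin RPKM in C18-4 and 92.5% to 94.97% in TM4. Krt80 to Krt18 is a run of 27 coding genes on chromosome 15, the type II keratin cluster with Krt18 at its end, and 19 of them were in the table. In it 4 genes, Krt80, Krt7, Krt8 and Krt18, reached 1 RPKM in C18-4 and 1, Krt80, in TM4, while 14 stayed under 0.3 RPKM in every library. Eif4b, a translation initiation factor gene next to Krt18, was at 192.78 to 207.34 RPKM in C18-4 and 172.52 to 206.19 RPKM in TM4.

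**Figure D2:**
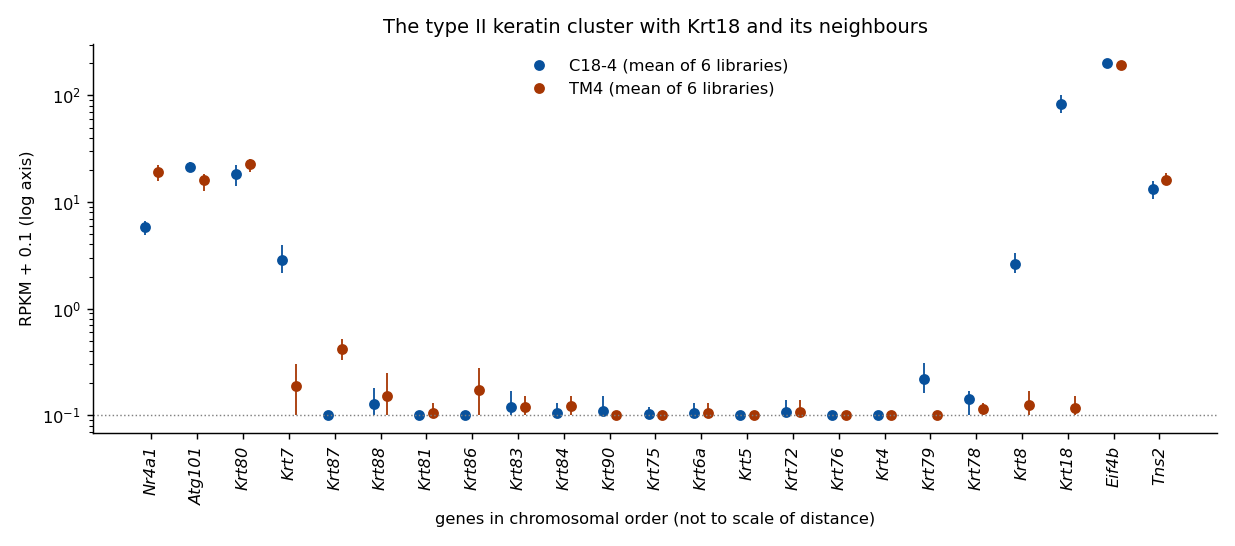
The type II keratin cluster and its neighbours in chromosomal order. The log axis is RPKM + 0.1, points are means over the 6 libraries of a line, vertical lines run from the lowest to the highest library, and the dotted line marks 0 RPKM. The lines differ at Krt7, Krt8 and Krt18, with 2.06 RPKM or more in each C18-4 library, and Krt80 and Eif4b at the 2 ends were expressed in both lines.

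Krt80, a type II keratin, was above 14 RPKM in every library of both lines. It was between 14.14 and 22.06 RPKM in C18-4 and between 19.15 and 25.48 RPKM in TM4, and the ranges overlapped. The difference of TM4 from C18-4 was 0.33 (log2, SE 0.058, limma adjusted p = 2.94e-04). It rested on the shNC libraries: among them TM4 was higher by 0.72 (adjusted p = 0.00108), and among the shM5 libraries the difference was -0.054 (adjusted p = 0.526).

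Of the filaments of mesenchymal and muscle cells, Vim and Nes were higher in TM4 and Des was lower. Vim was between 577.01 and 769.26 RPKM in C18-4 with a median of 689 RPKM, and between 619.52 and 1125.05 RPKM in TM4 with a median of 1013 RPKM, so the lines overlapped. The difference was 0.39 (log2, SE 0.13, limma adjusted p = 0.0209). It was 0.080 among the shNC libraries alone (adjusted p = 0.784), 0.69 among the shM5 libraries alone (adjusted p = 1.90e-04), and lost the call without C18-4 shNC replicate 3 (adjusted p = 0.0509) or C18-4 shM5 replicate 3 (adjusted p = 0.0518).

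Nes, the filament of neural and other progenitor cells, was between 22.50 and 34.41 RPKM in C18-4 and between 34.04 and 60.99 RPKM in TM4, and the highest C18-4 library was above the lowest TM4 library. The difference was 0.82 (log2, SE 0.13, adjusted p = 1.14e-04). Des, the muscle filament, was between 4.26 and 6.60 RPKM in C18-4 and between 0.38 and 0.53 RPKM in TM4. The lines did not overlap, and the ratio of means was 11.6, C18-4 over TM4.

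The 2 lamins went opposite ways. Lmna, which encodes lamin A and lamin C, was between 72.05 and 128.52 RPKM in C18-4 and between 93.81 and 210.77 RPKM in TM4. The difference was 0.62 (log2, SE 0.21, limma adjusted p = 0.0203), it was not called among the shNC libraries alone (0.26, adjusted p = 0.554), and it lost the call without C18-4 shM5 replicate 3 (adjusted p = 0.0524). Lmnb1, which encodes lamin B1, was between 64.81 and 124.35 RPKM in C18-4 and between 14.73 and 35.59 RPKM in TM4. Each C18-4 library was above each TM4 library, and the difference was -1.93 (log2, SE 0.19, adjusted p = 2.78e-06). At a difference of at least 1 on the log2 scale besides the adjusted p, 27.1% of all tested genes were called and 17.2% were lower in TM4, and among the filament genes 6 were called, all lower in TM4, of which Lmnb1 alone passed the filter in both lines.

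Vim made up 51.8% to 68.2% of the summed RPKM of 46 cytoplasmic intermediate filament genes in C18-4 and 90.7% to 93.0% in TM4. Keratins made up 25.6% to 39.6% in C18-4 and 1.90% to 3.93% in TM4. The ratio of Lmna to Lmnb1 was 0.878 to 1.31 in C18-4 and 5.34 to 6.97 in TM4, with no overlap. These are shares and ratios of RPKM, and a share moves when any of its parts does.

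The genes with the pattern closest to the 3 widest-ranging filament genes were found by the root mean square distance of centred log2(RPKM + 0.1) over the 12 libraries among 11156 genes. For Krt19 these were Efemp1 (distance 0.39), with 135.01 to 185.81 RPKM in C18-4 and 0 to 0.08 RPKM in TM4, and Grb10 (distance 0.40). For Krt18 they were Gpm6a (0.30) and Tcfl5 (0.31), and for Krt7 they were Llgl2 and Slc9a3r2 (0.29 each). The difference between the lines sets most of this likeness.

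In C18-4, Krt19 was the 1 filament gene that passed the fit without the block, and its call depended on which libraries were fitted. Krt19 was at 198.02, 190.49 and 235.97 RPKM in the 3 shNC libraries and at 379.17, 368.53 and 312.97 RPKM in the 3 shM5 libraries. The groups did not overlap, and replicate 3 of each group lay closest to the other group. The ratio of means was 1.70, and the difference was 0.77 (log2, SE 0.11, limma adjusted p = 0.0417). limma called 0.586% of 11611 genes in this comparison, 68 genes, and 1 of the 10 filament genes. The call was lost when C18-4 shNC replicate 1 or 2 or C18-4 shM5 replicate 1 or 2 was left out (adjusted p = 0.214, 0.238, 0.256 and 0.256 in that order). Each of these fits called 0 of all tested genes. The call was also lost without C18-4 shM5 replicate 3 (adjusted p = 0.0569) and kept without C18-4 shNC replicate 3 (adjusted p = 0.0150). With 1 library left out the difference stayed between 0.70 and 0.86.

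Replicate 3 of both C18-4 groups deviated together, so the fit with the number as a block is given beside the fit without it. The deviations of replicates 1 and 2 also correlated across numbers (r = 0.341 and 0.345, against 0.439 and 0.409 within numbers). Pairing by number was therefore less clear for these 2. With the block limma called 11.9% of the 11611 genes, 5.21% as higher with shM5, and 5 of the 10 filament genes, all as higher: Krt19, Krt80, Krt18, Nes and Lmnb1. Without replicate 3 of both groups it called 26.2% of 11549 genes and 8 of the 10, with 6 higher, these 5 and Krt7, and 2 lower, Vim and Lmna. Krt19 had a limma adjusted p of 0.00417 with the block. Without replicate 3 of both groups its difference was 0.94 (log2, adjusted p = 1.96e-06).

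Krt18 was at 71.85, 68.27 and 81.39 RPKM with shNC and at 88.52, 87.96 and 100.82 RPKM with shM5. The groups did not overlap, and replicate 3 was the highest of each group. The difference of 0.32 (log2, SE 0.093) missed the threshold without the block (adjusted p = 0.225) and passed it with the block (adjusted p = 0.00568). The ratio of Krt19 to Krt18 was 2.76, 2.79 and 2.90 with shNC and 4.28, 4.19 and 3.10 with shM5, so replicate 3 of shM5 lay near the shNC libraries in this ratio.

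Krt80 was at 15.97, 15.70 and 14.14 RPKM with shNC and at 22.06, 21.04 and 19.57 RPKM with shM5. All shM5 libraries were above all shNC libraries. The difference was 0.45 (log2, SE 0.088) with an adjusted p of 0.0974 without the block and 0.00397 with it. Nes was at 23.50, 25.16 and 22.50 RPKM with shNC and at 32.23, 34.41 and 27.69 RPKM with shM5, again without overlap. Its difference was 0.40 (log2, SE 0.10) with an adjusted p of 0.166 without the block and 0.00695 with it.

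Groups did not overlap for 4 of the 10 filament genes in C18-4, Krt18, Krt19, Krt80 and Nes, against 18.9% of all tested genes. Of the other 6, Lmnb1 showed the clearest pairing. It was at 98.33, 104.64 and 64.81 RPKM with shNC and at 121.83, 124.35 and 83.14 RPKM with shM5. Replicate 3 was the lowest of both groups, and shM5 was higher within each number. The difference of 0.31 (log2, SE 0.22) had an adjusted p of 0.672 without the block and 0.00779 with it. Without the block it was 0.090 when C18-4 shNC replicate 3 was left out and 0.49 when C18-4 shM5 replicate 3 was.

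**Figure D3:**
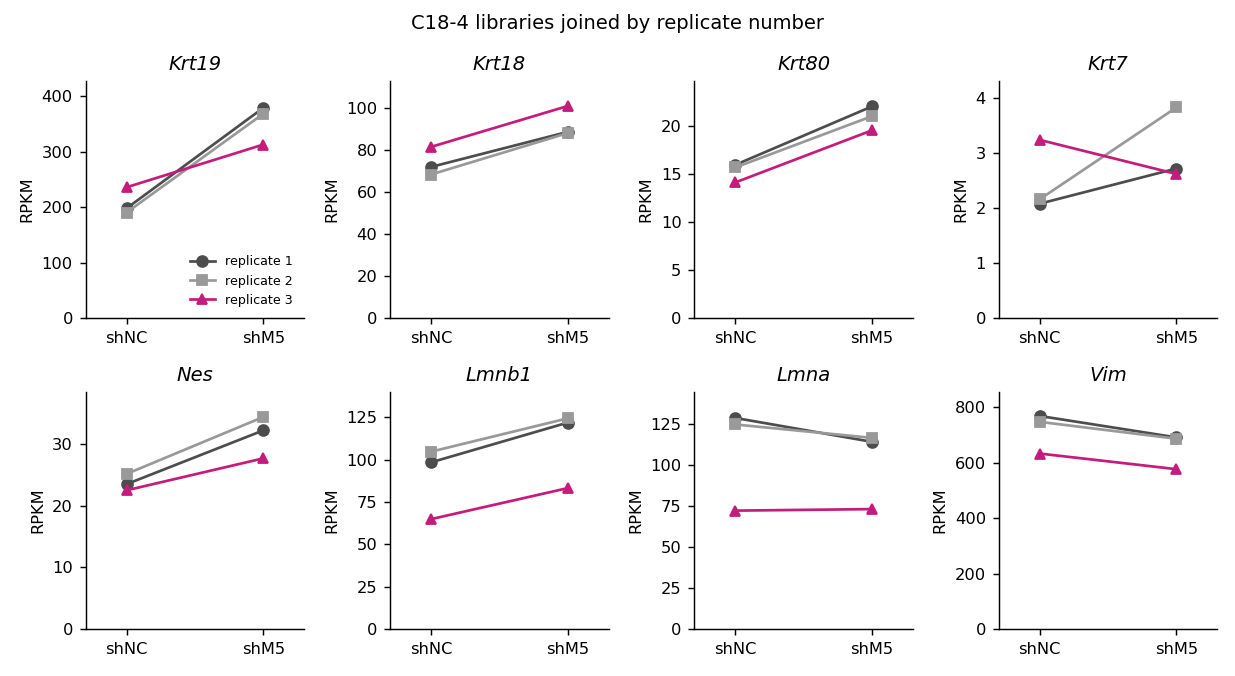
RPKM of 8 filament genes in the C18-4 libraries, with lines that join shNC and shM5 libraries of the same replicate number and all vertical axes starting at 0. Krt19, Krt18, Krt80, Nes and Lmnb1 are higher with shM5 at each number, Vim is lower at each number, and replicate 3 (triangles) lies apart for Lmnb1, Lmna and Vim.

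The other 5 filament genes did not pass either fit in C18-4. Vim was at 769.26, 748.03 and 633.45 RPKM with shNC and at 691.68, 686.92 and 577.01 RPKM with shM5, a difference of -0.14 (log2, 95% interval -0.39 to 0.12, adjusted p = 0.713, and 0.0568 with the block). Lmna was at 128.52, 124.54 and 72.05 RPKM with shNC and at 113.95, 116.36 and 72.98 RPKM with shM5, and its difference of -0.084 had an interval from -0.71 to 0.54. In both genes replicate 3 was the lowest of both groups. In these libraries the summed ATF4 targets were at 755 and 737 RPKM, and their part in the levels of Vim, Lmna and Lmnb1 was not tested.

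Krt7 was at 2.08, 2.16 and 3.24 RPKM with shNC and at 2.72, 3.83 and 2.62 RPKM with shM5 (difference 0.29, 95% interval -0.24 to 0.82). Krt8 was at 2.45, 2.66 and 2.12 RPKM with shNC and at 2.43, 2.06 and 3.26 RPKM with shM5 (difference 0.078, interval -0.38 to 0.54). Des was at 4.92, 4.26 and 6.60 RPKM with shNC and at 4.77, 4.59 and 5.62 RPKM with shM5 (difference -0.056, interval -0.47 to 0.36). The groups overlapped for all 3.

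The shares in C18-4 restate the levels of Krt19 and Krt18, since keratins and Vim are parts of 1 sum. Vim made up 68.1%, 68.2% and 58.6% of cytoplasmic filament RPKM with shNC and 54.1%, 54.4% and 51.8% with shM5. Keratins made up 25.9%, 25.6% and 31.4% with shNC and 38.8%, 38.5% and 39.6% with shM5. Neither share overlapped between the groups. The ratio of Lmna to Lmnb1 was 1.31, 1.19 and 1.11 with shNC and 0.935, 0.936 and 0.878 with shM5, also without overlap. This ratio was lower with shM5 in TM4 too, at 6.97, 6.37 and 6.70 with shNC and 5.51, 5.34 and 6.34 with shM5.

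In TM4, 5 filament genes passed the filter, Vim, Nes, Krt80, Lmna and Lmnb1, and none passed the test. limma called 0% of 11016 genes there, 0 genes at an adjusted p under 0.05 and 2866 at an unadjusted p under 0.05. Without TM4 shNC replicate 3, the library that lay with the shM5 libraries, it called 67.4% of 11026 genes and all 5 filament genes, 4 as higher with shM5 and Krt80 as lower. That share of all genes is the background for these 5 calls. Groups of 3 did not overlap for Lmnb1 and Krt80 among the 5, against 26.8% of all tested genes.

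Lmnb1 was at 14.78, 14.73 and 30.40 RPKM with shNC and at 34.44, 35.59 and 33.23 RPKM with shM5. The groups did not overlap, and shNC replicate 3 lay next to the shM5 libraries. The difference was 0.87 (log2, SE 0.28, adjusted p = 0.192), and 1.22 without that library (adjusted p = 1.32e-06). Lmna was at 103.09, 93.81 and 203.56 RPKM with shNC and at 189.89, 189.92 and 210.77 RPKM with shM5. Here shNC replicate 3 lay inside the shM5 range. The difference was 0.65 (SE 0.29, adjusted p = 0.192), and 0.9988 without that library (adjusted p = 7.90e-06).

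Vim was at 631.16, 619.52 and 1100.93 RPKM with shNC and at 1025.87, 999.57 and 1125.05 RPKM with shM5. Again shNC replicate 3 was inside the shM5 range. The difference was 0.47 (log2, SE 0.22, adjusted p = 0.201), and 0.75 without that library (adjusted p = 1.72e-05). Nes was at 34.04, 34.85 and 59.00 RPKM with shNC and at 54.18, 53.16 and 60.99 RPKM with shM5, with a difference of 0.44 (SE 0.22, adjusted p = 0.209), and 0.70 without that library (adjusted p = 5.15e-05).

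Krt80 did not follow this split. It was at 25.34, 25.48 and 24.48 RPKM with shNC and at 19.77, 19.15 and 21.41 RPKM with shM5. All 3 shNC libraries, replicate 3 included, were above all shM5 libraries. The difference was -0.32 (log2, SE 0.078, adjusted p = 0.192), and -0.34 without TM4 shNC replicate 3 (adjusted p = 0.00157). The summed ATF4 targets were at 997 and 998 RPKM in TM4 shNC replicates 1 and 2, where Vim, Nes, Lmna and Lmnb1 were low, and at 274 RPKM in shNC replicate 3, and their part in these differences was not tested.

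**Figure D4:**
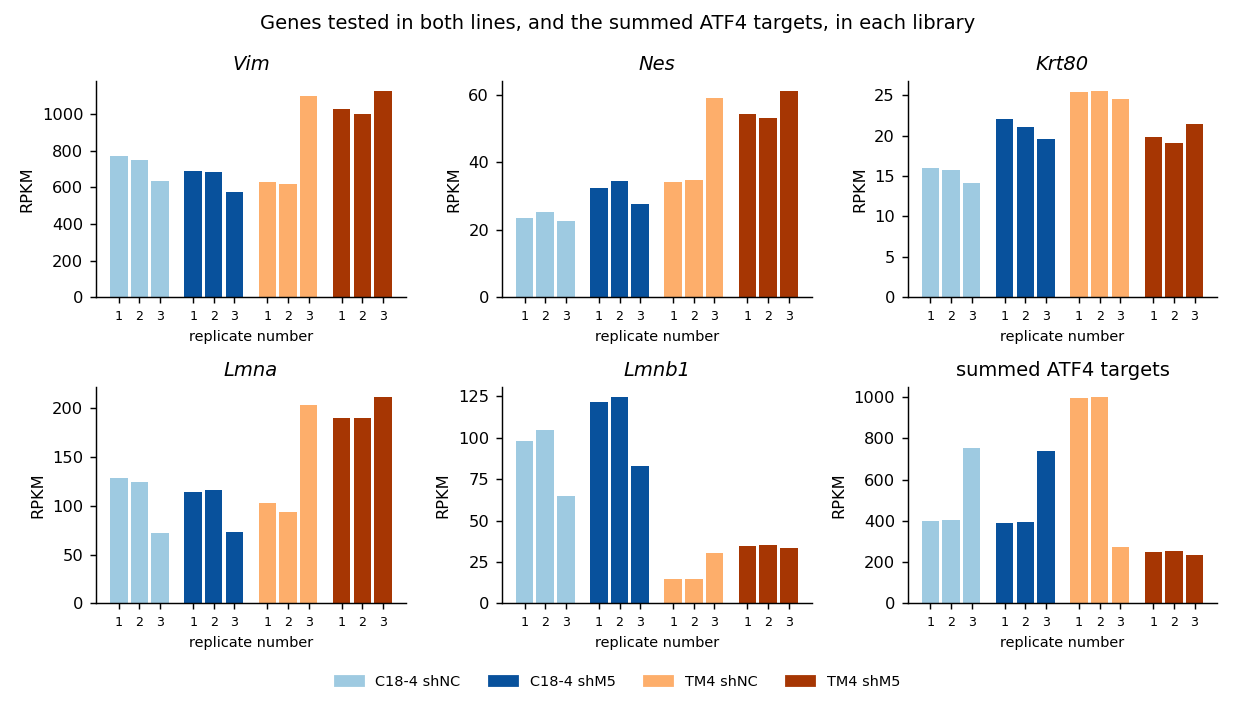
RPKM of Vim, Nes, Krt80, Lmna and Lmnb1 and of the summed ATF4 targets in each of the 12 libraries, as bars coloured by group and numbered by replicate. In TM4 shNC replicate 3 Vim, Nes, Lmna and Lmnb1 are near their shM5 levels and the summed ATF4 targets are at 274 RPKM, while Krt80 stays at 24.48 RPKM with the other shNC libraries.

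The other 5 filament genes stayed below the filter in TM4. Des was at 0.38, 0.53 and 0.40 RPKM with shNC and at 0.43, 0.38 and 0.53 RPKM with shM5. Krt7 was at 0, 0 and 0.12 RPKM with shNC and at 0.08, 0.20 and 0.12 RPKM with shM5. Krt19 was at 0, 0 and 0.04 RPKM with shNC and at 0.10, 0.09 and 0.07 RPKM with shM5. Krt8 and Krt18 did not exceed 0.07 RPKM. These genes were not tested with the filter. Without it, when all 10 filament genes were tested, none was called, beside 0 of all 15622 genes in that fit.

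The difference of the shM5 effect between the lines asks whether a filament gene responded otherwise in TM4 than in C18-4. limma called 0.102% of 11773 genes in it, 12 genes, and Krt80 was the 1 filament gene among them. Its shM5 effect was 0.45 in C18-4 and -0.32 in TM4, a difference of -0.77 (log2, SE 0.12, adjusted p = 0.0468). It was higher in all 3 C18-4 shM5 libraries and lower in all 3 TM4 shM5 libraries than in any shNC library of the same line. With the replicate number as a block the adjusted p was 0.0998. This block joined the same numbers of both lines, though in TM4 the numbers were not taken to pair the libraries. Leaving out single libraries moved the difference between -0.82 and -0.72 and kept the call without C18-4 shNC replicate 3 (adjusted p = 0.0355) and TM4 shNC replicate 3 (adjusted p = 4.46e-04), and lost it without any of the other 10.

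For the other genes tested in both lines the difference of effects was not called with all libraries. It was 0.61 for Vim (log2, 95% interval 0.028 to 1.19, adjusted p = 0.230), 0.73 for Lmna (-0.20 to 1.67, adjusted p = 0.319), 0.56 for Lmnb1 (-0.29 to 1.42, adjusted p = 0.386) and 0.041 for Nes (-0.52 to 0.60, adjusted p = 0.930). Without TM4 shNC replicate 3, 38% of 11793 genes were called and 4 filament genes: Vim with 0.88 (adjusted p = 8.95e-04), Lmna with 1.08 (adjusted p = 0.0273), Lmnb1 with 0.91 (adjusted p = 0.0250) and Krt80. Krt7, Krt8, Krt18, Krt19 and Des were near 0 in TM4. Their low TM4 values and the added constant enter this fit, so no difference of effects was read for them.

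**Figure D5:**
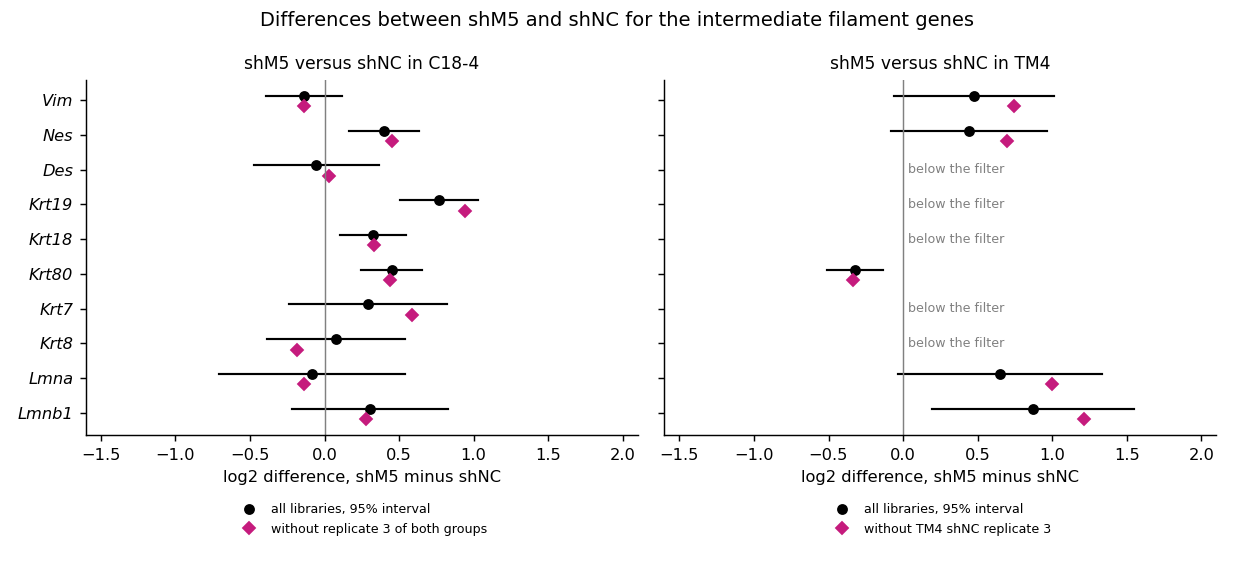
Log2 differences of shM5 from shNC for the 10 filament genes in C18-4 (left) and TM4 (right). Black points with bars are the differences with all libraries and their 95% intervals, pink diamonds leave out replicate 3 of both groups in C18-4 and TM4 shNC replicate 3 in TM4, and genes below the filter are named as such. Krt80 lies at 0.45 in C18-4 and at -0.32 in TM4.

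Partners of the filaments were taken from 3 lists. Among 11 tested linkers of cytoplasmic filaments, 3 were higher and 8 lower in TM4 than in C18-4, where 73% of all tested genes were called, 3433 as higher and 5163 as lower. Evpl, Dsp and Pkp1 were at or below 0.04 RPKM in TM4 and passed the filter through C18-4 alone, so their being lower followed from the filter. Jup, plakoglobin of desmosomes and adherens junctions, was between 32.50 and 53.27 RPKM in C18-4 and between 2.49 and 6.10 RPKM in TM4 (difference -3.20, SE 0.17, adjusted p = 6.27e-09). Evpl, envoplakin, was between 3.94 and 6.18 RPKM in C18-4 and at or below 0.04 RPKM in TM4. The higher ones included Pkp4, a plakophilin, with 0.92 (SE 0.052, adjusted p = 1.40e-08), and Fam83h, a keratin-binding protein, with 0.74 (SE 0.081, adjusted p = 5.62e-06).

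Among the other intermediate filament genes 3 were tested, Prph, Lmnb2 and Sync, and all 3 were lower in TM4, beside the 73% of all genes called. Prph passed the filter through C18-4 alone. Prph, peripherin of peripheral neurons, was between 37.00 and 76.47 RPKM in C18-4, above Nes, and between 0.18 and 0.75 RPKM in TM4. Lmnb2, which encodes lamin B2, was lower by a smaller amount, with -0.32 (log2, SE 0.10, adjusted p = 0.0137). The 17 nuclear lamina partners were all tested: 5 were higher in TM4, 7 were lower and 5 did not pass, a share of calls near the 73% of all genes. Emd, emerin, was higher (0.53, SE 0.050, adjusted p = 1.42e-06), and Rce1, a protease that trims prenylated proteins such as prelamin A, Syne2, a nesprin, and Banf1, a chromatin tether of the envelope, were lower by 1.12, 1.495 and 0.72 on the log2 scale.

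No gene of these lists passed in either shM5 comparison with all libraries and without the block. In C18-4 the medians of the log2 differences were 0.050 for the linkers and -0.012 for the lamina partners, beside -0.0024 for all tested genes and 0.30 for the 10 filament genes. With the block 3 of 11 linkers were called, beside 11.9% of all tested genes, and they are named here after their values were seen: Dsp (desmoplakin, adjusted p = 0.0185) and Jup (adjusted p = 0.00557) were higher with shM5 and Pkp1 (plakophilin 1, adjusted p = 0.0110) was lower. Dsp was at 2.25, 2.44 and 2.99 RPKM with shNC and at 3.63, 4.04 and 3.89 RPKM with shM5. Pkp1 was at 2.19, 2.13 and 2.25 RPKM with shNC and at 1.13, 1.05 and 1.37 RPKM with shM5. Neither gene overlapped between the groups, as was so for 18.9% of all tested genes in C18-4. Both were at or below 0.03 RPKM in TM4.

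In TM4 the median differences were 0.23 for 9 linkers and 0.013 for 17 lamina partners, beside 0.036 for all tested genes and 0.47 for the 5 filament genes. Without TM4 shNC replicate 3, 6 of 9 linkers were called (5 higher) and 11 of 17 lamina partners (7 higher), beside the 67.4% of all genes given above. Plec, the plectin that ties filaments of several kinds together, was at 17.21, 16.27 and 36.00 RPKM with shNC and at 32.79, 33.79 and 36.47 RPKM with shM5, and was chosen after its values were seen. Its shNC replicate 3 lay with the shM5 libraries, as in Vim and Lmna.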

How the data were processed

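RNA-seq was analysed in 12 mouse libraries, 3 in each of 4 groups (C18-4 and TM4, shNC and shM5). The titles gave each library its group and number. The authors selected mRNA with oligo(dT), sequenced it on a HiSeq 2500, mapped reads to reference genes with SOAPaligner 2.20, which allows mismatches, and deposited the values as RPKM with 2 decimals. The genome build and annotation are not given in the sources used here. RPKM keeps no read numbers, so counting error is unknown. The study's own calls, made with DEGseq, were not used.

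log2(RPKM + 0.1) was fitted with limma 3.58.1 (R 4.3.3, eBayes with a mean-variance trend) where the libraries in a fit averaged 0.5 RPKM or more, for each line alone and all 12 libraries for contrasts between lines. p-values were adjusted by Benjamini-Hochberg over all genes tested, and a call is an adjusted p under 0.05. SE and intervals are from the same fit. A difference of 1 on the log2 scale is 2-fold. The fit was tested on simulated data. Same-numbered shNC and shM5 libraries deviated together in C18-4 (r = 0.439, 0.409 and 0.631 over 11611 genes), and less in TM4. The block was therefore given for C18-4, where replicates 1 and 2 also correlated across numbers (r = 0.341 and 0.345). No 2 libraries held identical values.

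Shared 50-base words were counted in GENCODE M21 transcripts, and promoters came from RefSeq. From the lists of partners up to 4 genes a list and comparison were named, those with the smallest adjusted p under 0.05 and a group mean of at least 5 RPKM. The genes and lists were chosen with earlier results of these data known. Python 3.11.15, numpy 2.4.6, pandas 2.3.3 and matplotlib 3.10.9 were used. Alternatives were another constant, filter, scaling, variance prior and threshold, the block, and leaving out libraries.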

Additional observations from a re-analysis of the deposited data

Results flagged for a closer look

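The shM5 effect on Krt80 differed between the lines by -0.77 (log2, TM4 minus C18-4, SE 0.12, limma adjusted p = 0.0468). The call was lost with the replicate block, which joined the same numbers of both lines (adjusted p = 0.0998), and with median centring (adjusted p = 0.0693). It was also lost when any of 10 of the 12 libraries was left out. It is listed because the test of the difference itself passed with all libraries, and because all 3 C18-4 shM5 libraries were above and all 3 TM4 shM5 libraries below the shNC libraries of their own line. The mean of Krt80 was 15.3 RPKM with shNC and 20.9 RPKM with shM5 in C18-4, and 25.1 RPKM with shNC and 20.1 RPKM with shM5 in TM4. With 3 libraries a group, no value of a single gene was tested for an outlier.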

How the results depend on the processing

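The direction of the TM4 against C18-4 differences was kept for all 10 filament genes in all alternatives but 1: Krt80 was at -0.054 among the shM5 libraries. For Krt7, Krt8, Krt18, Krt19 and Des this direction followed from the filter, which they passed through C18-4 alone. With a 2-fold change required besides an adjusted p under 0.05, 3188 genes and 6 filament genes were called there, and at the threshold of the methods (FDR of at most 0.001 and 2-fold) 3101 and 6. Of these 6, Lmnb1 alone passed the filter in both lines. In C18-4 limma called 68 genes and 1 filament gene in the report's fit. It called 4 and 0 without a filter, 45 and 0 without a mean-variance trend, 0 and 0 at the threshold of the methods, 1386 and 5 with the replicate block, and 3029 and 8 without replicate 3 of both groups. Median centring left 0 filament genes, with an adjusted p of 0.0553 for Krt19. In TM4 it called 8016 genes and 5 filament genes without replicate 3 of both groups, and 0 and 0 with the replicate block. There the same-numbered libraries correlated by 0.0729, 0.0489 and 0.127, so the numbers were not taken to pair them, and only replicate 3 correlated best with its own number.

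For the difference of the shM5 effect, 12 genes were called in the report's fit, 27 with a constant of 1 RPKM, 21 without a filter, 23 with median centring (0 filament genes), 57 with quantile normalization, 22 without a trend, 1 with the replicate block (0 filament genes) and 0 at the threshold of the methods (0 filament genes). The block in fits of all 12 libraries joined the same numbers of both lines. Apart from those named here and in the report, the block changed no call of a filament gene.

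With 1 library left out at a time, the number of genes called ran from 0 to 237 in C18-4 (0 to 1 filament genes), from 0 to 7433 in TM4 (0 to 5), from 8211 to 9332 between the lines (8 to 10) and from 0 to 4477 for the difference of effects (0 to 4). The C18-4 differences ran from -0.35 to 0.13 for Lmna, -0.10 to 0.22 for Krt8, -0.19 to 0.12 for Des, 0.090 to 0.49 for Lmnb1, 0.12 to 0.49 for Krt7 and -0.22 to -0.051 for Vim, and the difference of effects for Nes from -0.10 to 0.30. Without replicate 3 of both groups Krt8 was at -0.18 and Des at 0.031 in C18-4. The cause of these shifts was not tested. With 3 libraries a group, and 1 TM4 shNC library apart from its group, small differences could not be resolved, and values under about 0.1 RPKM carry no usable difference.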
